A study of Mus musculus with 16 samples.

Results

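Acetylation of histone H3 at lysine 27 (H3K27ac), which marks promoters and enhancers in use, was examined at 7 mouse genes: Atp8a1, Rapgef6, Qpct, Jmjd1c, Ppp2r2a, Ralgapa2 and Tarm1. The genes were chosen by the measured values themselves, since the highest-scoring treatment-specific peaks of these lists lie at them, so presence and score of those peaks are given as a description with no test. Every peak whose summit lay in the gene body or within 70 kb of a start site of one of the 7 genes was included. These were 329 of 171291 peaks in 4 lists, or 123 of 55218 regions after peaks that overlapped by at least 1 bp were merged. The cells were primary bone marrow-derived macrophages (BMDMs) grown from C57Bl6 mice aged 8 to 12 weeks in medium conditioned by L-929 cells. They were left untreated (Control), given 100 ng/mL interferon gamma for 1 h (IFNγ), given 20 µM of the PARP inhibitor PJ34 (PJ34), or given PJ34 for 1 h before IFNγ (IFNγ+PJ34). PJ34 inhibits the PARP family, which modifies proteins with chains of ADP-ribose, and how long the cells of the PJ34 group were exposed is not given in the sources used here. Each condition had 2 ChIP replicates and 2 input samples, and the authors made 1 peak list from both replicates. Replicate error could therefore not be measured and conditions could not be tested against each other, and the labels do not say whether replicates came from separate animals or cultures.

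IFNγ acts through its receptor and the JAK kinases, and enhancers that respond to it often hold a short palindrome, the gamma-activated site (GAS). H3K27ac is set by acetyltransferases such as p300 and CBP on the nucleosomes beside an active enhancer. In a macrophage many such enhancers lie in introns or between genes, far from the promoter they serve, so a peak in a gene body does not by itself say which gene it acts on. A bulk ChIP measurement cannot tell more cells carrying the mark from more mark per cell.

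The Control list held 77 peaks at the 7 loci, the IFNγ list 86, the PJ34 list 82 and the IFNγ+PJ34 list 84. The whole lists held between 40708 and 44090 peaks, and the IFNγ list covered 0.808 times the length of the Control list. Sequencing depth is not given in the lists, so peaks were ranked within their own list: a score percentile of 90 means that the authors' score was above that of 90 percent of the peaks of that list. The macrophage identity of the cells was seen in all 4 lists, where 10 of 10 macrophage marker genes (Csf1r, Spi1, Adgre1 and others) had a peak within 1 kb of a start site. None of 5 T cell or 5 fibroblast markers had one in any list, whereas Ms4a1 of 4 B cell markers had one in every list, S100a8 of 5 neutrophil markers in IFNγ and PJ34, and Klf1 of 4 erythroid markers in every list. The part of other cell types in the results below was not tested.

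The 8 peaks that chose the genes fell into 3 classes. The first class held IFNγ peaks absent from Control and from PJ34 and found again in IFNγ+PJ34, 1611 in all, and its 3 highest-scoring peaks lay at Atp8a1 and, as a pair, at Rapgef6. The second class held IFNγ peaks found in no other list, 2250 in all, and was led by peaks at Ppp2r2a, Ralgapa2 and Tarm1. The third class held 5758 peaks that IFNγ+PJ34 shared with none of the other lists, of which the first was at Qpct and the second at Jmjd1c. The third of that class lay in Ifi204, an interferon-inducible gene that is not among the 7, at a score percentile of 88.0. Just outside the choice, the next peaks of the first class lay nearest to Zcchc2 (81.0), Ranbp2 (80.7) and Tnfrsf1a (80.2), against 81.6 for the lowest chosen peak. The same was seen below the second class. Its next peaks lay nearest to Bbs10 (67.4), Wdfy4 (67.4) and Armc9 (63.8), against 68.0 for the chosen peak at Tarm1. Those of the third class after Ifi204 lay nearest to Zfp609 (87.8), 1700025G04Rik (87.7) and Mfsd4b4 (86.0), against 90.2 for Jmjd1c. The lowest member and the next peak of a class were thus close in score.

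**Figure D1:**
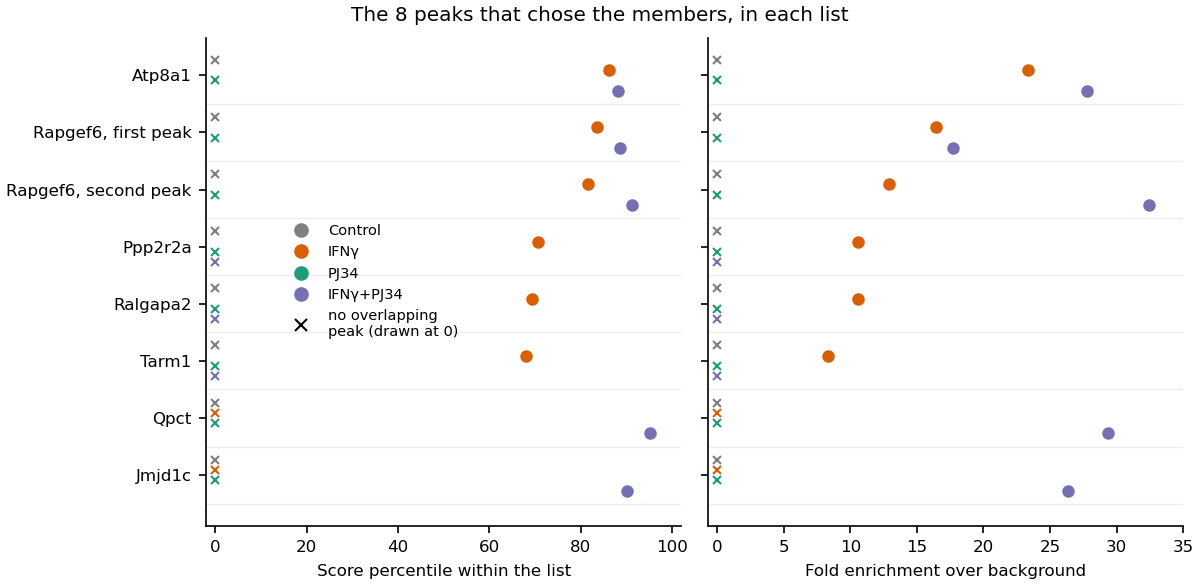
Score percentile within the list (left) and fold enrichment over the local background (right) of the 8 peaks that chose the genes, with the highest-scoring overlapping peak of each other list as a coloured point and a cross at 0 where a list had none. The Atp8a1 and both Rapgef6 peaks stood higher in IFNγ+PJ34 than in IFNγ on both axes, while the other 5 were in a single list. Fold is not ranked within a list, and its median over the whole list was 6.32 in IFNγ+PJ34 and 5.51 in IFNγ.

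Atp8a1 (chr5:67618140-67847434, mm10, minus strand) encodes a P4-type ATPase, a flippase that moves aminophospholipids such as phosphatidylserine to the cytosolic side of membranes. The chosen IFNγ peak lay at chr5:67827957-67828590 in intron 1 of 36, 19.1 kb into the gene. It was 634 bp wide, at a score percentile of 86.1 and a fold enrichment of 23.4, and the authors' fold and p-value together correspond to a pileup of about 117 at the summit over a background of 4.05, both in units of the authors' scaling and not in reads. In IFNγ+PJ34 a single peak of 2024 bp covered the same site, at percentile 88.2 and fold 27.8. No Control peak overlapped it, but the nearest one, 268 bp wide and at percentile 11.5, was only 245 bp away, so the absence from Control depended on the distance allowed. The nearest PJ34 peak was 5104 bp away.

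The other peaks of Atp8a1 fell into a 5′ and a 3′ cluster that differed between the lists. At 24.7 kb into the gene the percentile was 76.3 (Control), 85.1 (IFNγ), 56.3 (PJ34) and 95.8 (IFNγ+PJ34). At 32.4 kb it was 88.7, 94.7, 86.8 and 97.5 in the same order, so both intronic sites ranked highest in IFNγ+PJ34 and lowest in PJ34. The promoter had a peak in every list, at percentiles 82.4, 85.2, 85.6 and 92.0. Between 183 and 209 kb, near the 3′ end of the gene, there were 11 regions, none of which had a peak in IFNγ+PJ34. The strongest of them, at 204 kb, was at percentile 66.8 in Control, 80.2 in IFNγ and 79.4 in PJ34. Over the whole locus the covered length in kb was nearly even, at 13.0 kb (Control), 14.5 kb (IFNγ), 14.8 kb (PJ34) and 13.9 kb (IFNγ+PJ34), although the sites that made it up were not the same. The lists differ in total length, and the ratio of IFNγ to Control, 1.12 here, had a median of 0.823 over 10664 genes. The ratio of PJ34 to Control was 1.15 (median 0.910), and that of IFNγ+PJ34 to Control was 1.08 (median 0.801). That of IFNγ+PJ34 to IFNγ was 0.960 (median 0.988). These ratios count the chosen peak.

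Rapgef6 (chr11:54522847-54699285, plus strand) encodes a guanine nucleotide exchange factor that activates Rap GTPases, which act in integrin adhesion and cell junctions. Both chosen IFNγ peaks lay in intron 24 of 28, at chr11:54681555-54682597 (percentile 83.5, fold 16.5) and chr11:54683273-54684296 (percentile 81.6, fold 12.9), about 60 kb from an alternative start site inside the gene. IFNγ+PJ34 had a peak at each, at percentile 88.6 and fold 17.7 and at percentile 91.2 and fold 32.4. Control and PJ34 had none within 5 kb, and their nearest peaks were 6115 bp or more away. The summit backgrounds inferred for the IFNγ peaks were 5.98 and 7.88 for pileups of about 114 and 113.

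The reference sequence between the 2 peaks is a tandem repeat of GAS matches. The letters TTCCTAGAA, 1 of the forms of the GAS pattern TTCNNNGAA, occur 25 times between chr11:54682573 and chr11:54683361, a stretch of 789 bp, and 22 of the 24 steps from one match to the next are exactly 30 bp. The pattern leaves the 3 middle bases free, and 0 of the 25 matches meet the stricter palindrome TTCCNGGAA. The first 10 of them are shown because they carry what is particular in the sequence of this site. They stand on the plus strand of GRCm38.p6, the RefSeq version of the same build, at chr11:54682561-54682860, with the GAS matches in capitals:
Rapgef6 intron 24 repeat: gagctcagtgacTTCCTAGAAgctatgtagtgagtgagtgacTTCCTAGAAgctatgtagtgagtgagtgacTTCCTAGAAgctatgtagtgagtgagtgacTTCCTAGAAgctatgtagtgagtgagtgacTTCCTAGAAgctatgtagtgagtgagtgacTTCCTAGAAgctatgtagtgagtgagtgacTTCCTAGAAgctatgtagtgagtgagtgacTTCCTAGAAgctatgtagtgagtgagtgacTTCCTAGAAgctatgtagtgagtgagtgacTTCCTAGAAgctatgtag

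Only 1 of the 25 matches lay inside the first IFNγ peak and 3 inside the second, while 21 lay in the gap of 675 bp that separates them. None of the 4 lists had a peak in that gap. The inner edges of the peaks were nearly the same in both lists: counted from the start of the repeat, the first peak ended at 24 bp in IFNγ and at 18 bp in IFNγ+PJ34, and the second began at 700 and 711 bp. The authors kept only reads that mapped to a single place, and of the 626 stretches of 50 bases that start and end in the gap, 603 (96.3%) occur again in the repeat or within 2 kb of it, against 0 of 994 in the first peak and 89 of 975 (9.13%) in the second. Read length is not given in the sources used here, and the acetylation of the repeat itself could not be read from these lists. With 1 kb added on each side, 25 GAS matches surrounded each of the 2 peaks, a number that 2 of 40708 IFNγ peaks reached, namely these 2, and the median over all IFNγ peaks was 1.

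**Figure D2:**
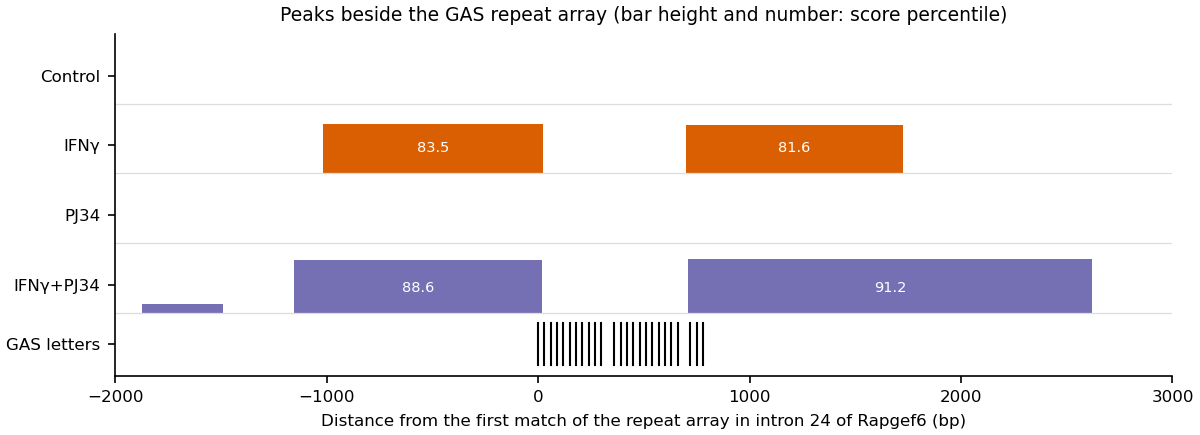
Peaks of the 4 lists and GAS matches by distance in bp from the first match of the repeat in intron 24 of Rapgef6, with bar height and number giving the score percentile within the list. IFNγ and IFNγ+PJ34 each had a peak on either side of the 25 matches, and Control and PJ34 had none.

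The sites around the alternative start site of Rapgef6 were the highest-ranking of all peaks at the 7 loci. At -3.51 kb from that start, where negative values lie upstream, IFNγ+PJ34 had a peak of 7598 bp at percentile 99.5 and fold 70.4. In Control the same region was at percentile 92.1 and fold 34.7, in IFNγ at 90.4 and 27.3, and in PJ34 at 75.4 and 12.1. At 3.64 kb downstream the percentiles were 86.4 (Control), 92.9 (IFNγ), 76.6 (PJ34) and 99.7 (IFNγ+PJ34), where the peak was 6447 bp wide. At 26.7 kb they were 85.7, 84.4, 76.6 and 99.0. All 3 sites were therefore lowest in PJ34 and highest in IFNγ+PJ34. The promoter at the 5′ end of the gene did not follow this order, with percentiles of 92.1, 87.6, 90.9 and 89.8. Another 10 regions of the locus were in IFNγ+PJ34 alone, at percentiles from 0.523 to 65.6. Of these, 1 at percentile 57.4 lay in an exon of the neighbouring gene Fnip1. Peaks in introns of Fnip1 are also counted at this locus. The locus had 15 peaks over 20.3 kb in Control, 18 over 22.6 kb in IFNγ, 9 over 13.3 kb in PJ34 and 23 over 37.8 kb in IFNγ+PJ34.

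**Figure D3:**
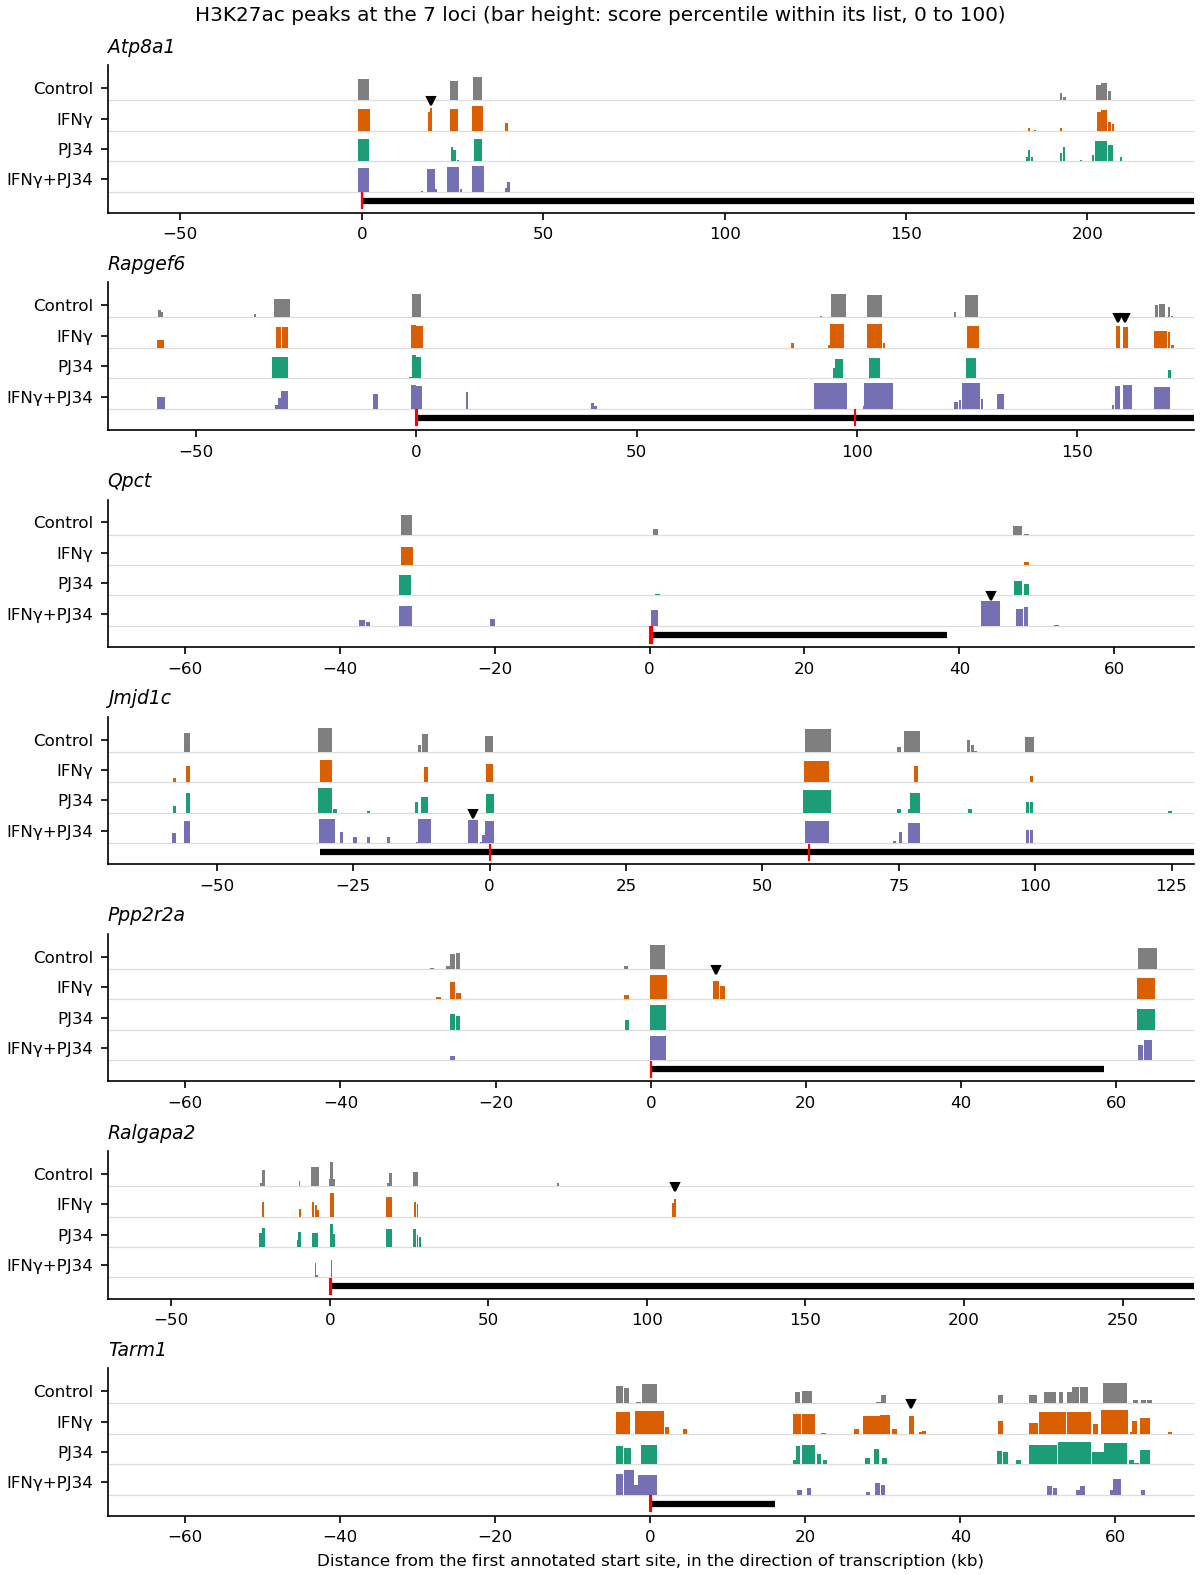
Peaks at the 7 loci by distance in kb from the first annotated start site in the direction of transcription, one track per list, with bar height giving the score percentile (0 to 100). Black bars are gene bodies, red ticks start sites and triangles the 8 peaks that chose the genes; the 3′ cluster of Atp8a1, the upstream and intronic sites of Ralgapa2 and most of the sites downstream of Tarm1 are missing or lower in IFNγ+PJ34.

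Qpct (chr17:79051906-79090378, plus strand) encodes glutaminyl cyclase, which turns the first glutamine of peptides and chemokines such as CCL2 into pyroglutamate. Its chosen peak was the highest-scoring of all peaks found in IFNγ+PJ34 alone. It covered 2449 bp at chr17:79094767-79097215, between genes and 43.4 kb from the start site, at percentile 95.2 and fold 29.4, with a pileup of about 196 over a background of 5.70. The nearest Control peak was 1669 bp away. A pair of sites just beyond it was in more than 1 list and ranked in the same direction: at 47.7 kb the percentile was 32.5 in Control, 54.8 in PJ34 and 66.7 in IFNγ+PJ34 with no peak in IFNγ, and at 48.3 kb it was 3.96 (Control), 10.4 (IFNγ), 46.0 (PJ34) and 74.5 (IFNγ+PJ34). The promoter of Qpct was weak or absent outside IFNγ+PJ34. It was at percentile 19.9 in Control, 5.78 in PJ34 and 61.0 in IFNγ+PJ34, and IFNγ had no peak there. The neighbouring promoter of Prkd3, a protein kinase D gene on the other side of Qpct, ranked evenly at 75.1, 69.8, 80.6 and 78.7 in Control, IFNγ, PJ34 and IFNγ+PJ34. Covered length at the locus was 3.35 kb (Control), 1.80 kb (IFNγ), 3.41 kb (PJ34) and 8.07 kb (IFNγ+PJ34). The ratio of IFNγ+PJ34 to IFNγ was 4.49, where the median over 10665 genes with at least 5 kb covered in the 4 lists together was 0.988. The IFNγ+PJ34 length includes the chosen peak, picked because IFNγ lacked it, so the ratio is a description.

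Jmjd1c (chr10:67096125-67256326, plus strand), also called KDM3C, encodes a JmjC-domain protein of the KDM3 family of histone H3 lysine 9 demethylases. Its chosen peak, also in IFNγ+PJ34 alone, covered 1703 bp at chr10:67123352-67125054 in an intron, 3.04 kb before an annotated start site, at percentile 90.2 and fold 26.4. The nearest Control peak was 1418 bp away, at the start site itself. At that start site the percentile was 59.7 (Control), 71.4 (IFNγ), 72.8 (PJ34) and 83.5 (IFNγ+PJ34). At -11.8 kb it was 68.6, 60.3, 61.9 and 92.7, so this site too stood apart in IFNγ+PJ34. The next start site carried a broad peak, which in Control covered 4872 bp at percentile 89.3 and ranked at 83.2 (IFNγ), 88.8 (PJ34) and 85.6 (IFNγ+PJ34). The promoter shared with Reep3 at the upstream end of the gene was at 92.8, 86.5, 93.2 and 92.7. Downstream, 3 adjacent regions 29.2 to 30.4 kb past that start site were in Control and had no peak in IFNγ or IFNγ+PJ34, and 1 of them had a peak in PJ34. All 7 regions present in every list ranked higher in IFNγ+PJ34 than in IFNγ, against 49.0% of such regions in the genome. Of the 7, 6 ranked lowest in IFNγ, as did 6335 of 21468 such regions in the genome. The locus had 12 peaks (Control), 9 (IFNγ), 16 (PJ34) and 19 (IFNγ+PJ34).

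Ppp2r2a (chr14:67014056-67072444, minus strand) encodes the B55α regulatory subunit, which directs the phosphatase PP2A to its substrates. The chosen peak was the highest-scoring peak in IFNγ alone, at chr14:67063608-67064413 in intron 2 of 9, 8.44 kb into the gene, at percentile 70.6 and fold 10.6 with a pileup of about 56.9 over a background of 4.48. A second IFNγ-only peak of 430 bp lay next to it at percentile 50.4. The nearest Control peak was 6123 bp away. Both GAS matches of the larger peak have the same letters, and they are shown on the plus strand with 30 bases on each side and the match in capitals:
Ppp2r2a chr14:67063658-67063726: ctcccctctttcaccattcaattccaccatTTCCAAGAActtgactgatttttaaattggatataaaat
Ppp2r2a chr14:67064128-67064196: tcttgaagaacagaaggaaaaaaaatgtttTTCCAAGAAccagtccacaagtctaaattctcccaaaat

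The promoter of Ppp2r2a was among the strongest of the 7, at percentiles 91.6 (Control), 95.1 (IFNγ), 96.5 (PJ34) and 92.7 (IFNγ+PJ34). Upstream at -25.7 kb the percentile was 57.0 (Control), 67.4 (IFNγ), 61.9 (PJ34) and 15.6 (IFNγ+PJ34). The neighbouring site at -25.0 kb was at 60.6, 24.3 and 52.9 in the first 3 lists and had no peak in IFNγ+PJ34. All 3 regions present in every list, which include the promoter of the mitophagy receptor gene Bnip3l, ranked lower in IFNγ+PJ34 than in both IFNγ and PJ34. Over the genome, 49.0% of such regions ranked higher in IFNγ+PJ34 than in IFNγ, and 39.1% higher than in PJ34. Covered length was 6.76 kb (Control), 7.64 kb (IFNγ), 5.75 kb (PJ34) and 4.31 kb (IFNγ+PJ34).

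Ralgapa2 (chr2:146239879-146512344, minus strand) encodes the catalytic subunit of a RalGAP complex, which switches off the Ral GTPases. Its chosen peak lay deep in the gene body, at chr2:146403227-146403794 in intron 22 of 41, 108 kb from the start site, at percentile 69.3 and fold 10.6, with an IFNγ-only neighbour of 479 bp at percentile 52.2. The nearest Control peak was 36785 bp away, and the nearest IFNγ+PJ34 peak was 107721 bp away. Of the chosen peak, 73.9% is repeat-masked sequence, against a median of 13.4% over IFNγ peaks, a higher share than in 98.2% of them. The share was also above that median in the chosen IFNγ peaks at Atp8a1 (44.95%), Tarm1 (42.9%) and Ppp2r2a (38.7%). In the Rapgef6 peaks it was 16.2% and 6.93%. How well reads could be placed at the Ralgapa2, Atp8a1, Tarm1 and Ppp2r2a peaks was not tested. Apart from the chosen peak and its IFNγ-only neighbour, the Ralgapa2 locus was marked by sites in the first introns and upstream. The first 3 lists held these sites, which were mostly missing from IFNγ+PJ34. At 18.4 kb the percentile was 49.1 in Control, 74.4 in IFNγ and 70.7 in PJ34. At 26.5 kb it was 54.8, 57.4 and 70.3, and at -21.0 kb it was 63.3, 55.0 and 72.4. IFNγ+PJ34 had no peak at any of these 3 sites. The promoter had a peak in every list but ranked lower in IFNγ+PJ34, at 92.7, 89.3, 90.0 and 68.9, with folds of 42.7, 29.0, 22.7 and 8.14. The locus had 11 peaks over 8.42 kb in Control, 12 over 7.62 kb in IFNγ, 12 over 9.81 kb in PJ34 and 4 over 1.48 kb in IFNγ+PJ34. The ratio of IFNγ+PJ34 to IFNγ in covered length was 0.194, lower than for all but 0.277% of the 10665 genes. The IFNγ length includes the chosen peak, picked because IFNγ+PJ34 lacked it, so this ratio too is a description.

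Tarm1 (chr7:3486500-3502624, minus strand) encodes an activating receptor of myeloid cells that signals through the Fc receptor gamma chain, and it belongs to the leukocyte receptor gene family. Its chosen peak lay beyond the 3′ end at chr7:3468728-3469249, 33.5 kb from the start site, at percentile 68.0 and fold 8.30, with a pileup of about 56.9 over a background of 5.98. It stood among a wide group of sites from 19.1 to 66.7 kb past the start site. The largest, at 55.6 kb, was at percentile 64.0 (Control), 85.4 (IFNγ), 87.1 (PJ34) and 31.8 (IFNγ+PJ34), and peaks covered 5592, 7630, 7743 and 1350 bp of it. At 59.8 kb the percentiles were 79.4, 91.5, 82.3 and 58.4. The site at 19.7 kb was at 49.1, 74.8, 72.8 and 27.04. These 3 downstream sites were thus higher in IFNγ and in PJ34 than in Control, and lower in IFNγ+PJ34 than in either. The promoter gave another order, at percentiles of 74.0 (Control), 88.1 (IFNγ), 74.8 (PJ34) and 77.2 (IFNγ+PJ34). The upstream site at -3.19 kb was highest in IFNγ+PJ34, at 65.8, 83.3, 71.6 and 93.0. All 9 regions in every list ranked higher in IFNγ than in Control, against 38.1% of such regions in the genome, and 1 of the 9 ranked higher in IFNγ+PJ34 than in IFNγ, against 49.0%. IFNγ alone held 8 regions, the chosen peak included, and the others were at percentiles from 4.54 to 24.3. Covered length was 16.8 kb (Control), 29.2 kb (IFNγ), 24.6 kb (PJ34) and 10.1 kb (IFNγ+PJ34).

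**Figure D4:**
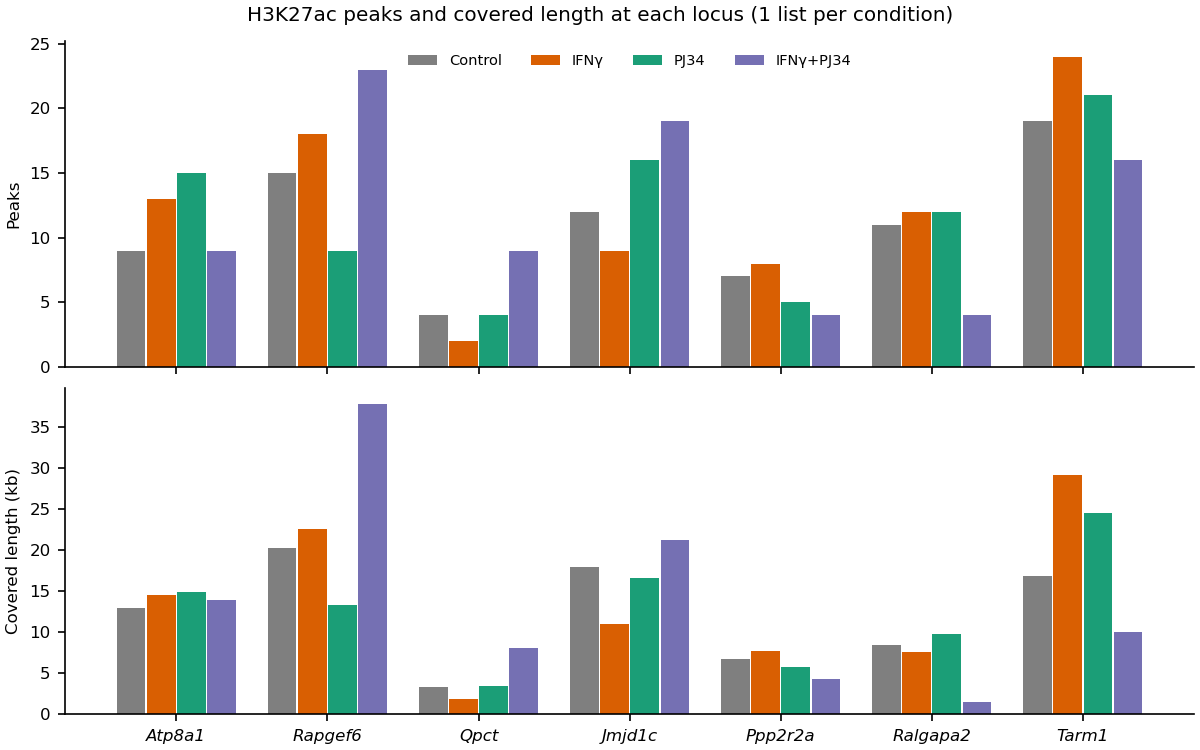
Number of peaks (top) and length covered by peaks in kb (bottom) at each locus, one bar per list. IFNγ+PJ34 was the highest list at Rapgef6, Qpct and Jmjd1c and the lowest at Ppp2r2a, Ralgapa2 and Tarm1 on both scales.

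To see how far the loci as a whole differed between conditions, peaks were counted as shared where a peak of the other list overlapped by at least 1 bp, and each share is given beside that of the whole list. The intervals are exact Clopper-Pearson 95% limits, take no account of anything but counting error and treat neighbouring peaks as independent. Of the IFNγ peaks at the 7 loci, 27 of 86 (31.4%, 21.8 to 42.3%) were absent from Control, against 16.8% of the whole list. Since 6 of them had chosen the genes, the count without these was 21 of 80 (26.3%, 17.0 to 37.3%). Tarm1 contributed 11 of the 27 and Qpct none. In the other direction IFNγ lacked 16 of the 77 Control peaks (20.8%, 12.4 to 31.5%), against 31.7% of the whole list, with none of 19 at Tarm1 and 5 of 12 at Jmjd1c. For PJ34 alone, 21 of 82 peaks (25.6%, 16.6 to 36.4%) were absent from Control, against 19.5%, an interval that includes the share of the whole list.

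Counts for IFNγ against IFNγ+PJ34 differed between the loci. They include the chosen peaks, which were picked by presence in these lists. Of the IFNγ peaks, 36 of 86 (41.9%, 31.3 to 53.0%) were absent from IFNγ+PJ34, against 24.1% of the whole list. They lay at Tarm1 (14 of 24), Ralgapa2 (8 of 12), Atp8a1 (7 of 13), Ppp2r2a (5 of 8) and Rapgef6 (2 of 18), and none of the 9 peaks at Jmjd1c or the 2 at Qpct was absent. Of the IFNγ+PJ34 peaks, 32 of 84 (38.1%, 27.7 to 49.3%) were absent from IFNγ, against 27.2%, and 25 of 84 (29.8%, 20.3 to 40.7%) were in no other list, against 13.4%. Those 25 lay at Rapgef6 (10), Jmjd1c (6), Qpct (5) and Atp8a1 (4), and 0 of the 24 IFNγ+PJ34 peaks at Ppp2r2a, Ralgapa2 and Tarm1 were of this kind. Apart from the chosen peaks, the highest percentile among them was 65.6 at Rapgef6, 43.6 at Jmjd1c, 38.4 at Atp8a1 and 27.04 at Qpct. Atp8a1 had several peaks missing from IFNγ+PJ34, all at its 3′ end, and several in IFNγ+PJ34 alone, all in its first 41 kb. Of the 27 IFNγ peaks absent from Control, 7 (25.9%, 11.1 to 46.3%) were found in IFNγ+PJ34, against 38.8% over the genome, and 4 of 21 (19.05%, 5.45 to 41.9%) without those that chose the genes. All of these shares involve presence in the contrasts by which the genes were chosen. Nothing is therefore read from their distance to the background or from how they divide the loci.

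After merging, 32 of the 123 regions (26.0%) had a peak in every list, against 38.9% of all regions. IFNγ alone held 15 (12.2%, against 4.07%), or 12 without those that chose genes, and IFNγ+PJ34 alone held 25 (20.3%, against 10.4%), or 23. PJ34 alone held 13 (10.6%, against 8.93%) and Control alone 7 (5.69%, against 11.8%). Among the 32 regions in every list, 20 ranked higher in IFNγ than in Control (62.5%, against 38.1% over the genome), and 18 ranked higher in IFNγ+PJ34 than in IFNγ (56.3%, against 49.0%). This near-even split was made up of opposite loci, with 17 of 18 such regions at Atp8a1, Rapgef6, Qpct and Jmjd1c ranking higher in IFNγ+PJ34 and 1 of 14 at Ppp2r2a, Ralgapa2 and Tarm1. At the former genes the chosen peaks were present in IFNγ+PJ34, and at the latter they were absent from it. The grouping thus follows the rule that chose the genes, and neighbouring regions are not independent, so nothing is read from the split.

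**Figure D5:**
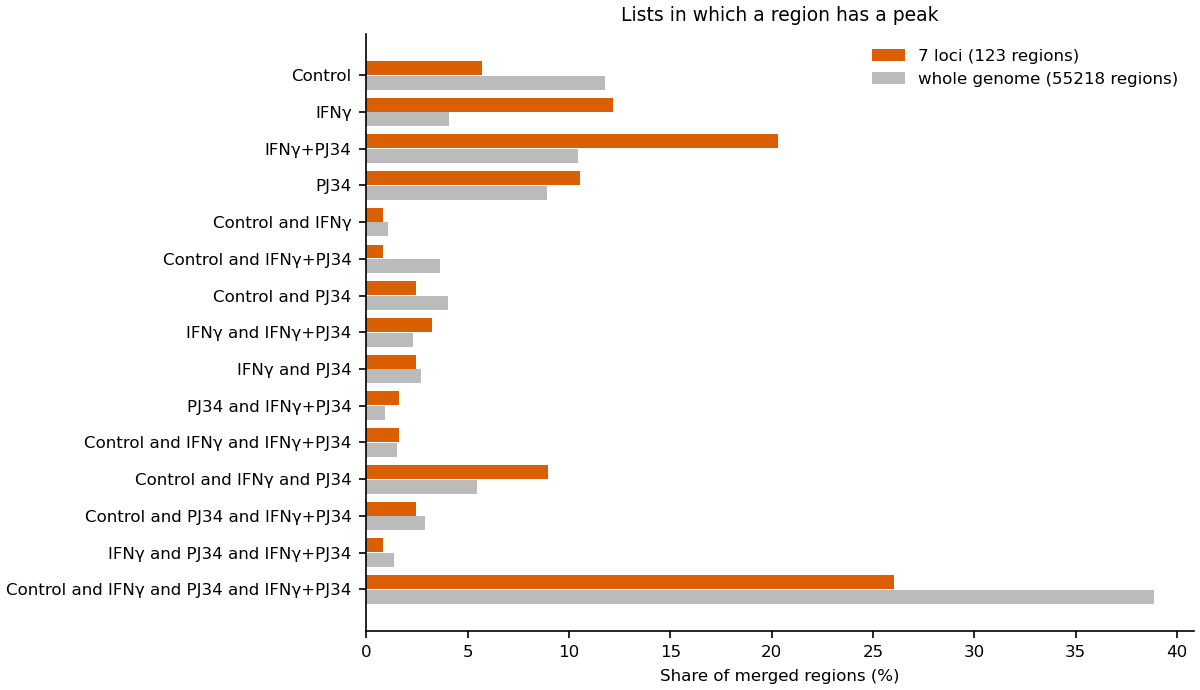
Share of merged regions in % by the set of lists in which they have a peak, for the 123 regions at the 7 loci (orange) and all 55218 regions (grey). Regions in IFNγ alone and in IFNγ+PJ34 alone take larger shares at the loci, and regions in all 4 lists a smaller one.

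The sequence of the chosen peaks was searched on both strands for GAS (TTCNNNGAA), for the same letters with the ends exchanged (GAANNNTTC) as a control, and for ISRE (TTCNNTTTC), AP-1 (TGANTCA) and PU.1 (GAGGAA) core letters. The ISRE is the site of interferon regulatory factors, and AP-1 and PU.1 are factors of macrophage enhancers. The 6 IFNγ peaks held 7 GAS matches in 4597 bp, or 1.52 per kb (exact Poisson 95% interval 0.612 to 3.14), where all IFNγ peaks held 0.341 per kb, and 4 of the 7 came from the Rapgef6 repeat. A Poisson interval treats matches as independent, which the copies of a repeat are not, so nothing is read from that interval. Without Rapgef6 there were 3 in 2530 bp, or 1.19 per kb (0.245 to 3.47), an interval that includes the value of the list. The control letters occurred once in the 6 peaks, at 0.218 per kb against 0.250 in the list. In the 2 IFNγ+PJ34 peaks the control letters were found more often than GAS: GAS occurred once (0.241 per kb, against 0.353 in that list) and the control letters 2 times, both at Qpct (0.482 per kb, against 0.251). Outside Rapgef6 and Ppp2r2a, matches were found at Atp8a1, 276 bp from the summit, and in the IFNγ+PJ34 peak at Qpct, 245 bp from it, and they are shown with 30 bases on each side:
Atp8a1 chr5:67828470-67828538: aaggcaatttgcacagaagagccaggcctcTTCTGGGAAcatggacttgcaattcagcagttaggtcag
Qpct chr17:79095758-79095826: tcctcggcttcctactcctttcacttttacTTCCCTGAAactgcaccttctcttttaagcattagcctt

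The Ralgapa2, Tarm1 and Jmjd1c peaks held no GAS match. ISRE letters occurred 1 time in the 6 IFNγ peaks, at Ppp2r2a, and 1 time in each of the 2 IFNγ+PJ34 peaks. AP-1 letters occurred 2 times in the IFNγ peaks, both at Ppp2r2a, and 3 times in the IFNγ+PJ34 peaks, 2 of them at Qpct and 1 at Jmjd1c. PU.1 letters occurred 9 times in the 2 IFNγ+PJ34 peaks, 2.17 per kb (0.991 to 4.11) against 1.18 in that list, of which 6 were at Qpct and 3 at Jmjd1c, and 2 times in the 6 IFNγ peaks, 0.435 per kb (0.0527 to 1.57) against 1.17. In the 300 bp around the summit none of the 8 peaks held any of the 5 patterns, while between 6.70% (control letters) and 27.1% (PU.1) of such windows in the lists did. H3K27ac sits on nucleosomes, so a summit is not the place where a factor binds, and a match or its absence in such a window says nothing of binding.

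The genes were also set beside 45 genes of the same families or complexes, of which 37 had a promoter peak in every list. Among 9 relatives of Atp8a1 (flippases and their partner Tmem30a), Atp11b had an IFNγ peak absent from Control within 70 kb at percentile 81.4 and fold 15.0, the strongest of all 45 genes, and Atp11a had 2 in the upper 50% of the list, the higher at 57.4. Atp8b4 had a peak in IFNγ+PJ34 alone at 58.4. Of 10 Rap exchange factors and Rap GTPases, 4 had such a gained peak in the upper 50%: the GTPase genes Rap2c (71.4), Rap1b (59.3) and Rap2b (53.7), and the exchange factor gene Rapgef2 (53.7). Kdm3a, a relative of Jmjd1c, had an IFNγ+PJ34-only peak at 71.4 and fold 11.8. Of 13 PP2A genes, Ppp2r2d had a gained peak at 50.4 and Ppp2r3a an IFNγ+PJ34-only peak at 58.4. Of 4 genes of the RalGAP complexes and Ral GTPases, Rala had a gained peak at 66.9, and of 5 relatives of Tarm1, Lilrb4a had an IFNγ+PJ34-only peak at 55.4. In the upper 50% of the lists, 8 of the 45 genes had a gained peak, against 6.91% of 21924 protein-coding genes, and 4 had an IFNγ+PJ34-only peak, against 5.12%. Counted at any score, 25 of 45 had a gained peak, against 32.4% of all genes, and 19 of 45 an IFNγ+PJ34-only peak, against 27.4%. These lists were drawn up by role and not matched on promoter activity, and roughly 50% of all genes had a promoter peak.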

How the data were processed

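H3K27ac ChIP-seq was analysed from the 4 deposited narrowPeak lists, 1 per condition. Per the study's methods, the authors used Bowtie and the mm10 build, kept reads mapped to a single place, called relaxed peaks per replicate with MACS against input and kept peaks found in both replicates. The deposited columns are a score (whole numbers from 10 to 1000), a fold enrichment, which is a ratio to the local background, the −log10 p and −log10 q values of the authors' caller, and a summit offset. Input samples and single replicates were not analysed here, and read depth is not given in the sources used here.

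Peaks were assigned by summit to the gene body or 70 kb around start sites of GENCODE M21 basic transcripts (21924 protein-coding genes). Scores were turned into percentiles within each list, with ties at their mid-rank. A peak was shared at 1 bp of overlap. Shares have exact Clopper-Pearson 95% intervals. Pileups were solved from fold and p under a Poisson background, depend on the authors' scaling and are not read counts. Sequences came from RefSeq GRCm38.p6. Python 3.11.15, pandas 2.3.3, scipy 1.17.1 and pysam 0.24.0 were used, and the functions were tested on simulated data. The named genes are the 7 members, the next 3 peaks of each class, genes with a start site in a member's window, and related genes with a treatment-specific peak in the upper 50% of a list. Fnip1 is named because peaks of the Rapgef6 window lie in its body. Related genes numbered 47, of which Atp10d and Gp49a had no protein-coding entry. The members and gene lists were chosen with earlier results of these data known. The search for runs of GAS matches and for repeated 50-base stretches was added after the sequence of the Rapgef6 peaks had been seen. Alternatives were other overlaps, distances, score and q thresholds and start-site sets. The result of another erythroid marker is not reported here.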

Additional observations from a re-analysis of the deposited data

Results flagged for a closer look

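At 6 of the 7 loci the number of peaks moved in opposite directions when IFNγ was added without and with PJ34, and at 5 of them the covered length did so as well. This was also the case for 35.3% (peaks) and 34.6% (covered length) of 10668 genes with at least 5 kb covered in the 4 lists together. With 1 list per condition the difference was not tested, and the genes were chosen on presence in these lists. The values below are the change with IFNγ under PJ34 (IFNγ+PJ34 minus PJ34) minus the change without it (IFNγ minus Control).

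At Tarm1, IFNγ went with 5 more peaks without PJ34 and 5 fewer with it, a difference of -10 peaks, and with 12.4 kb more and 14.5 kb less covered length, a difference of -26.8 kb. At Atp8a1 the changes were 4 and -6 peaks, a difference of -10 peaks and -2.47 kb, and the missing peaks were those of its 3′ end. At Ralgapa2 they were 1 and -8 peaks, a difference of -9, while covered length was lower with IFNγ in both settings. Without PJ34 the ratio of IFNγ to Control was 0.905, above the 0.808 of the whole lists. Under PJ34 the ratio of IFNγ+PJ34 to PJ34 was 0.151, against 0.921 for the whole lists. Ppp2r2a differed by -2 peaks and -2.31 kb. The other direction was seen at Qpct, with 7 peaks and 6.22 kb, and at Jmjd1c, with 6 peaks and 11.4 kb, where IFNγ went with fewer peaks without PJ34 and more with it. Rapgef6, the remaining locus, had more peaks with IFNγ in both settings, 3 without and 14 with PJ34.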

How the results depend on the processing

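The 7 shares were recomputed under 65 combinations of share and alternative, and each remained on the side of the whole-list share on which it is reported. The genes were chosen on presence in these lists, which bears on that side, so nothing is read from it. Of the 65, 54 stayed inside the reported interval. Counting a peak within 1 kb as shared moved 4 shares below it: Control peaks absent from IFNγ to 10.4%, PJ34 peaks absent from Control to 12.2%, IFNγ+PJ34 peaks absent from IFNγ to 25.0% and IFNγ+PJ34 peaks in no other list to 19.05%. An overlap of 50% of the peak raised PJ34 peaks absent from Control to 39.0% and IFNγ peaks absent from IFNγ+PJ34 to 55.8%. In the higher-scoring 50% of every list, Control peaks absent from IFNγ were 6.06%, IFNγ+PJ34 peaks absent from IFNγ 26.3% and IFNγ+PJ34 peaks in no other list 18.4%. Gene bodies alone gave 54.3% and 41.3% for the last 2 shares. The cause was not tested. The other settings (q under 0.01, equal list lengths, 50 kb and 10 kb, and, chosen after seeing the data, start sites of all GENCODE transcripts and omission of the peaks that chose the genes) moved none of the shares computed under them beyond its interval. The share of IFNγ peaks absent from Control that were found in IFNγ+PJ34 was computed under the overlap, 1 kb, 50 kb and both added settings only. The chosen peaks had a median percentile of 82.5 by score, 78.7 by fold and 63.1 by width. Windows of 300 bp held 0 matches of each of the 5 patterns, and the 8 GAS matches of the whole peaks were 4 without Rapgef6, an alternative chosen after seeing the data. No paired analysis was possible because the authors combined both replicates in every list, so no replicate could be left out either.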

Other observations

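The repeat at Rapgef6 led to a search of the whole reference for runs of GAS letters, made after that sequence had been seen and given as a description. On the autosomes, X and Y of GRCm38.p6 there were 9 places with at least 10 matches of TTCNNNGAA within 1 kb, and the 25 matches at Rapgef6 were the fourth-largest number. Of the 9, 2 had a peak within 1 kb in any list, and at both the peaks were in IFNγ and IFNγ+PJ34 and in neither Control nor PJ34. The Rapgef6 peaks were chosen for that pattern, so it is a description there. The other was at chr3:153434125-153434566, with 13 matches mostly 31 bp apart, 291 kb from the nearest protein-coding start site (St6galnac3). It had 1 IFNγ peak at percentile 24.3 and fold 3.53, and 2 IFNγ+PJ34 peaks, the higher at percentile 62.2 and fold 9.80.

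The letters with exchanged ends, GAANNNTTC, formed 40 such runs, and 0 of them had a peak within 1 kb in any list. With at least 7 matches there were 24 GAS runs, of which 3 had a peak nearby, the third being in all 4 lists near Swap70 on chromosome 7, and 170 runs of the exchanged letters, of which 0 did. With at least 5 matches, 40 of 958 GAS runs and 14 of 965 runs of the exchanged letters had a peak nearby. Among those 40, the peaks were in both IFNγ and IFNγ+PJ34 and in neither Control nor PJ34 at 5, or at 4 without Rapgef6, and in Control or PJ34 and in neither IFNγ nor IFNγ+PJ34 at 3, while the corresponding numbers for the exchanged letters were 0 and 1. At 12 of the 40, the 5 included, a peak was in IFNγ+PJ34 and in neither Control nor PJ34, against 1 of 14 for the exchanged letters. Of all merged regions, 2.29% were in IFNγ and IFNγ+PJ34 only and 10.4% in IFNγ+PJ34 alone, counted by overlap and not within 1 kb. Most of the 40 had peaks without IFNγ too, 25 in Control and 27 in PJ34. The runs differ in base composition and repeat content, and whether reads could be placed uniquely at them was not tested except at Rapgef6.

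Oscar, a relative of Tarm1 that encodes an osteoclast-associated receptor in the same gene family, had a promoter peak in IFNγ+PJ34 and in no other list. Within 70 kb it had 2 peaks in IFNγ+PJ34 alone, the higher at percentile 38.4 and fold 4.95, and 27.4% of all genes had such a peak. Oscar was named after its values had been seen.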
